A study of Nannochloropsis oceanica with 12 samples.

Results

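This comparison sets M2 cells, in which RNA interference targets the carbonic anhydrase CA2, against wild-type (WT) cells of the marine alga *Nannochloropsis oceanica* IMET1, 12 h after both were moved to fresh medium under 5% CO2. Its members are 4 of the 12 labelled samples of the series: WT replicates 1 and 2 and M2 replicates 1 and 2, each with levels for 9756 genes. All cultures were grown in continuous light with 5% CO2 before and after the transfer, so high CO2 is common to both lines and no low-CO2 sample enters. Polyadenylated RNA was sequenced without strand information. In the labels the source is whole cells, the material is total RNA and the molecule subtype is nuclear RNA, so which of these the values describe is not settled. M2 is represented by a lone knockdown line with no control line other than WT, so the knockdown and other differences between the lines cannot be told apart.

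Carbonic anhydrases interconvert CO2 and bicarbonate. In algae they belong to the carbon-concentrating mechanism, in which bicarbonate is taken up and converted to CO2 near Rubisco, the enzyme that fixes it, and which is usually most active when CO2 is scarce. RNA interference lowers a transcript by directing the cleavage of RNA that matches a double-stranded trigger.

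The deposited files do not pair gene IDs with gene names, and 0 of the IDs matched the 160 genes of the reference table at hand. The ID of CA2 is not given, so the knockdown itself was not checked and no pathway list was tested. The changes are therefore described by their size, their direction and the level of the transcripts, and at most 2 IDs are given in each direction. Diacylglycerol acyltransferase DGAT1A, which makes triacylglycerol, is the gene whose ID carries a name.

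Other 12 h columns stand apart from their labels. The last column of the M2 table repeats the header of replicate 2, and its values were 0.723 times those of replicate 1 within 0.1% for 9646 of 9647 genes above 0, so it was counted with replicate 1 as 1 library. The labels also list an M2 replicate 3 at 12 h, but no column header names it. WT replicate 3 had an FPKM sum of 780704 and 538 genes listed at 0, whereas the 4 libraries compared had sums of 609665 to 615881 and 43 to 109 genes at 0. Across the 9756 genes its log2(FPKM + 1) values correlated with those of the 4 libraries at r = 0.65 to 0.72, while the 2 WT libraries correlated at 0.99, the 2 M2 libraries at 0.99, and M2 with WT at 0.97. WT replicate 3 was left out of the comparison and is given only as a check.

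FPKM relate the fragments of a transcript to its length and to all mapped fragments, and so are shares of a library, so the RNA content of a cell is not seen, and in a bulk culture fewer cells that express a gene and less RNA per cell cannot be told apart. The read depth is unknown, but steps between values under 1 FPKM gave an estimate of the relative depth. By that estimate a single read raised FPKM 4.08 times as much in M2 replicate 1 as in M2 replicate 2, 2.76 times as much as in WT replicate 1 and 2.16 times as much as in WT replicate 2. At these estimates 45.6% to 69.7% of the ratios between low values fell on fractions of small whole numbers, within 0.15%, and each estimate may be off by a whole multiple, so the order of the libraries by depth is not settled. Each group has its own deposited table, so effects of table and line cannot be told apart.

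Large differences between the lines were mostly decreases in M2. Of 9512 genes tested, 221 passed the threshold and were at least 2-fold lower in M2, and 21 were at least 2-fold higher. These are 2.32% and 0.221% of the genes tested, and together 242 genes, or 2.54%. By at least 4-fold, 11 genes were lower and 1 was higher. Changes were computed on log2(scaled FPKM + 1) and called at an adjusted p under 0.05 (limma, Benjamini-Hochberg over all genes tested, n = 2 libraries per group).

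Calls of any size were more even in direction by the scaling used. In all, 1979 genes were higher in M2 (20.8% of those tested) and 2155 were lower (22.7%), with a median rise of 1.28-fold and a median fall of 1.47-fold. Of these 4134 genes, 2960 (71.6%) differed by less than 1.5-fold, the smallest by 1.04-fold. Among such small changes rises led, with 1790 against 1170 falls. From 1.5-fold to 2-fold there were 168 rises and 764 falls, and from 2-fold to 4-fold 20 rises and 210 falls. The balance of all calls depends on how the libraries are scaled. FPKM as deposited gave 1568 rises and 2424 falls, and quantile normalization, which gives every library the same distribution of values, turned the order to 2141 rises and 1842 falls. Falls of at least 2-fold outnumbered rises with both, by 267 to 18 and by 151 to 30, and rises outnumbered falls among changes under 1.5-fold, by 1441 to 1295 and by 1839 to 1124.

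The same asymmetry stands in the distribution over all tested genes, called or not. The median log2 change was 0.00 by the scaling used, and the quartiles were -0.29 and 0.22. The lowest 5% of genes lay below -0.82 and the highest 5% above 0.48. At the extremes, the lowest 1% lay below -1.21 and the highest 1% above 0.68.

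A test against a minimum change of 1.5-fold (limma treat, adjusted p under 0.05), instead of against no change, called 137 falls (1.44% of the genes tested) and 20 rises (0.21%). The count of genes whose libraries did not overlap was less selective: both M2 libraries lay above both WT libraries for 3518 genes (37%) and below both for 3545 (37.3%). Leaving out WT replicate 1 gave 1073 higher and 1266 lower genes, and leaving out WT replicate 2 gave 1004 and 1196, with 9 and 7 rises and 24 and 19 falls beyond 1.5-fold. In such a fit the spread comes from the 2 replicates of the other line, and the lone library is assumed to vary like them. Leaving out either M2 library moved the counts of higher and lower genes by less than 1.5 times.

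**Figure D1:**
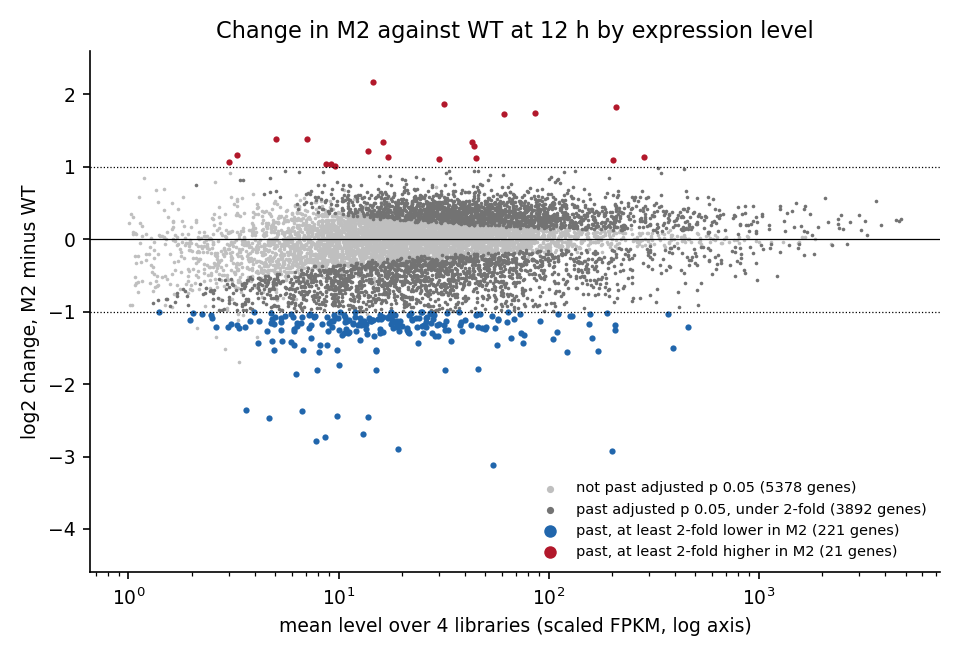
Each point is a gene tested at 12 h, with its mean scaled FPKM over the 4 libraries on a log axis and its log2 change (M2 minus WT) on the vertical axis. Blue points are the 221 genes called at least 2-fold lower in M2 and red points the 21 called at least 2-fold higher. Dotted lines mark 2-fold.

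Pairs of libraries show the same picture without a model. Between WT replicates 1 and 2, 6 genes were at least 2-fold higher and 11 at least 2-fold lower in replicate 2. From M2 replicate 1 to replicate 2, 41 genes were higher and 15 lower by that margin. In the 4 pairs that set an M2 library against a WT library, 225 to 343 genes were at least 2-fold lower in M2 and 26 to 41 at least 2-fold higher. The number of 2-fold rises between lines therefore lay in the range seen between the 2 M2 replicates, while the number of 2-fold falls lay far above it. M2 replicate 1 gave the larger counts of falls, 343 and 321, and M2 replicate 2 gave 246 and 225.

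The 4-fold margin separates the pairs further. Within WT 0 genes were 4-fold apart, and within M2 there was 1. Between the lines 10 to 20 genes were at least 4-fold lower in M2 and 1 to 2 at least 4-fold higher. The SD over genes of the log2 difference was 0.17 within WT, 0.23 within M2, and 0.41 to 0.46 between the lines.

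**Figure D2:**
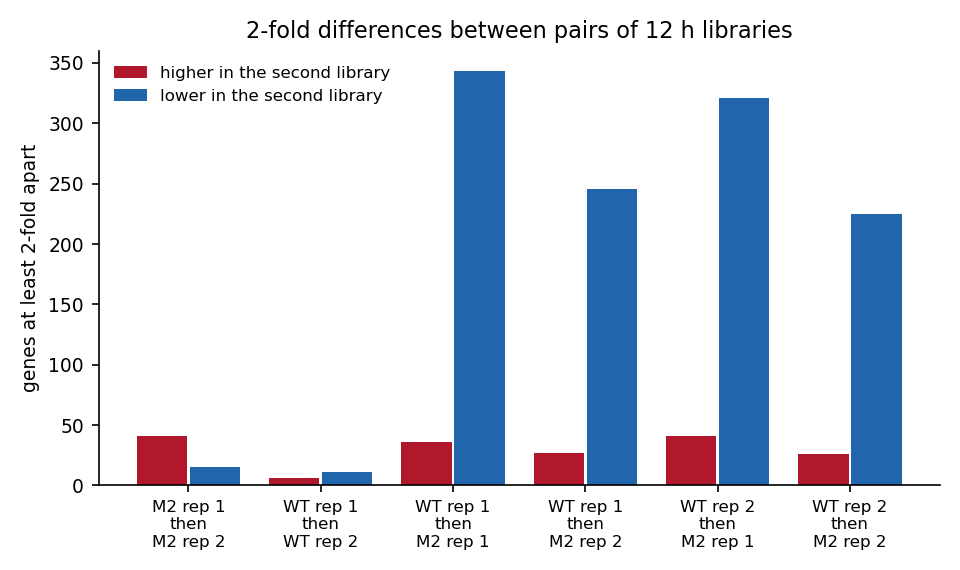
Bars give the number of tested genes at least 2-fold higher (red) or lower (blue) in the second library of each pair of 12 h libraries. The 4 pairs of a WT and an M2 library hold 225 to 343 genes lower in M2, against at most 41 genes in either direction within a line.

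The genes at least 2-fold lower in M2 were transcripts of moderate level. Their mean level in WT ranged from 2.19 to 647 scaled FPKM, with a median of 22.6 and quartiles of 12.5 and 41.7, and the median over all tested genes was 25.1. Of the 221 genes, 42 (19.0%) were under 10 FPKM in WT, against 18.1% of all tested genes, and 21 had at least 100. Their median level in M2 was 8.80 FPKM. Few were lost altogether: 2 genes were under 1 FPKM in both M2 libraries, and 1 was listed at 0 in an M2 library. With 0.1 instead of 1 added before the log, 325 genes were called at least 2-fold lower, and the levels of that set were not examined.

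As a share of all FPKM the fallen genes went from 1.76% and 1.74% in the WT libraries to 0.671% and 0.702% in the M2 libraries. The 21 genes at least 2-fold higher were lower in WT, with a median of 10.4 FPKM and a range of 1.58 to 179, and reached a median of 24.5 in M2. They made up 0.106% and 0.104% of FPKM in WT and 0.267% and 0.269% in M2. For genes that passed the test at any size, the shares of FPKM shifted more. The 1979 genes called higher went from 38.5% and 38.6% of FPKM in WT to 46.9% and 46.6% in M2, and the 2155 genes called lower from 27.4% in each WT library to 19.7% and 19.9%. The groups were chosen by these same levels, so the shares describe the change and are no test of it.

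Direction changed with expression level. In the class with a mean of 1 to 3 FPKM (287 genes) the median log2 change was -0.27, and 25.1% of genes had a higher mean in M2. From 3 to 10 FPKM (1561 genes) it was -0.21, and 29.7% were higher. From 10 to 30 FPKM (3552 genes) the median was 0.00, with 50.1% higher, and the classes above lay on the other side of 0.

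The median was 0.08 from 30 to 100 FPKM (3037 genes), 0.10 from 100 to 300 (760 genes), 0.06 from 300 to 1000 (256 genes) and 0.15 at 1000 FPKM and more (59 genes). In that highest class 67.8% of genes were higher in M2. Medians between replicates were small in each class, from -0.04 to 0.02 for WT and from -0.01 to 0.06 for M2. With a single M2 library against the same 2 WT libraries, medians in the lowest class were -0.31 for M2 replicate 1 and -0.25 for M2 replicate 2, and in the highest class they were 0.13 and 0.15. The part of depth in this pattern was not tested.

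Calls followed the same course. Of the 287 genes in the lowest class 1 was called higher and 41 lower, and from 3 to 10 FPKM the counts were 54 and 409. From 30 to 100 FPKM there were 920 higher and 649 lower, and at 1000 FPKM and more 37 higher and 13 lower. Falls of at least 2-fold occurred in every class but the highest, in 2.79%, 3.97%, 2.73%, 1.22%, 1.84% and 1.17% of genes from the lowest class up, and in 0 of the 59 genes at 1000 FPKM and more. Rises of at least 2-fold numbered at most 7 in any class and 0 in the lowest class and the 2 highest. These classes use the mean of all 4 libraries, so a gene's own change in M2 can move it between classes. With classes by the WT mean alone, the lowest class (228 genes) held 6 genes called higher and 14 lower. It then held 3 rises and 1 fall (0.44%) of at least 2-fold. From 3 to 10 FPKM 89 genes were called higher and 296 lower by these classes.

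The spread between replicates fell steeply with level while the spread between the lines fell less. From 1 to 3 FPKM the SD over genes of the log2 difference was 0.38 between the WT replicates, 0.50 between the M2 replicates and 0.43 to 0.60 in the 4 pairs of an M2 and a WT library. From 100 to 300 FPKM it was 0.08, 0.09 and 0.40 to 0.42. Single libraries of different lines thus differed little more than replicates in the lowest class, where the calls rest on less precise values. In the highest class the SD was 0.21 to 0.23 between the lines, against 0.03 and 0.05 between replicates.

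**Figure D3:**
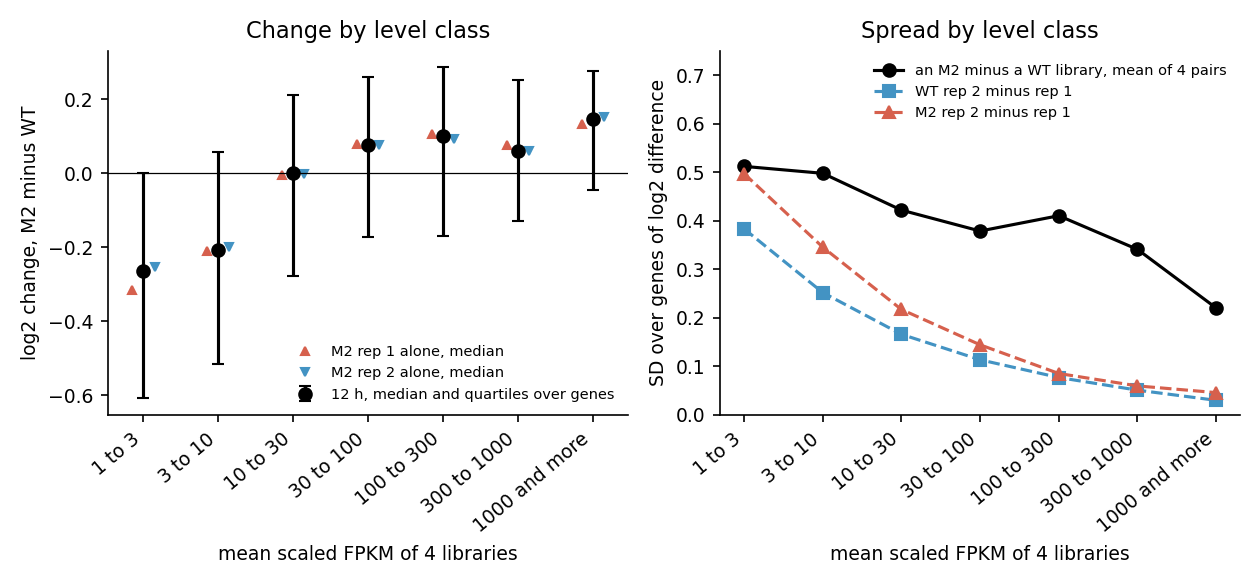
Left, the median log2 change (M2 minus WT) with quartiles over the genes of each class of mean scaled FPKM, and the medians with M2 replicate 1 or 2 alone. Right, the SD over genes of the log2 difference between an M2 and a WT library (mean of the SDs of the 4 pairs) and between replicates. The medians run from -0.27 in the lowest to 0.15 in the highest class, and the replicate SDs fall from 0.38 and 0.50 to 0.03 and 0.05.

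The medians by level depend on how the libraries are scaled. With FPKM as deposited the medians were -0.30 in the lowest class and 0.10 in the highest, and with an equal FPKM sum per library -0.29 and 0.11. Quantile normalization left 0.05 and -0.01. It gives every library the same distribution of values, which by itself draws the medians of level classes towards 0. It therefore cannot decide whether the lines differ by level. Classes by the WT mean alone gave medians of -0.10 in the lowest class and 0.12 in the highest. Over all genes under 10 FPKM the median moved from -0.21 to -0.14 with these classes. Over those at 100 FPKM and more it moved from 0.09 to 0.04 with them and to 0.05 with FPKM as deposited.

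The most abundant transcripts were higher in M2. All 10 genes with the highest mean, from 2707 to 4765 FPKM, were higher in M2, and all 10 passed the test (limma), by log2 changes of 0.06 to 0.53. Their share of FPKM was 5.49% and 5.57% in the WT libraries and 6.44% and 6.43% in the M2 libraries. With FPKM as deposited or an equal sum all 10 were again higher, with 9 calls. With quantile normalization 4 were higher and 4 lower. That method gives equal ranks the same value in every library, so a rise shared by the top genes cannot be seen with it. Among the 100 most abundant genes 56 were called higher and 27 lower, and 0 changed by 2-fold.

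Scaffold00009.g903 had the largest gain in level. Like the other named scaffold genes, it was chosen among called genes whose libraries did not overlap, so that separation was a condition. Its scaled FPKM were 2964 and 2977 in WT replicates 1 and 2, and 4309 and 4276 in M2 replicates 1 and 2. Both M2 libraries lay above both WT libraries by far more than the replicates differed, and the gene was the fifth most abundant overall. M2 exceeded WT by 0.53 on the log2 scale (limma, SE 0.01, adjusted p = 6.9e-06, n = 2 per group).

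The largest rise in proportion was that of scaffold00009.g409, a transcript of low level. It stood at 6.54 and 2.98 scaled FPKM in the WT libraries, and at 31.1 and 18.0 in the M2 libraries. The groups did not overlap, but the M2 libraries differed from each other by more than the lower of them differed from the higher WT library. The rise was 2.17 on the log2 scale (limma, SE 0.34, adjusted p = 0.0034, n = 2 per group), and it did not pass the test for a change beyond 1.5-fold (limma treat, adjusted p = 0.075).

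Of the fallen genes scaffold00081.g2813 changed most. It had 93.5 and 104 scaled FPKM in the WT libraries and 9.01 and 12.1 in the M2 libraries. The M2 values lay well apart from those of WT and close to each other. The difference was -3.12 on the log2 scale (limma, SE 0.13, adjusted p = 4.7e-05, n = 2 per group), or 8.67-fold lower on the scale of scaled FPKM + 1.

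The largest loss in level was in scaffold00008.g335, which ranked 49 by mean level. Its scaled FPKM were 1361 and 1504 in WT and 1084 and 927 in M2. The groups did not overlap, and within each line the replicates differed by over 100 FPKM. On the log2 scale the change came to -0.51 (limma, SE 0.08, adjusted p = 0.0026, n = 2 per group).

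DGAT1A had 25.4 and 24.4 scaled FPKM in the WT libraries and 29.3 and 30.3 in the M2 libraries. Both M2 values lay above both WT values, as for 37% of all genes tested. The rise of 0.25 on the log2 scale passed the threshold (limma, SE 0.08, adjusted p = 0.036, n = 2 per group), a call that was lost with either other linear scaling, with the replicate block and without any 1 of the 4 libraries (0.21 to 0.28, limma adjusted p = 0.055 to 0.19).

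**Figure D4:**
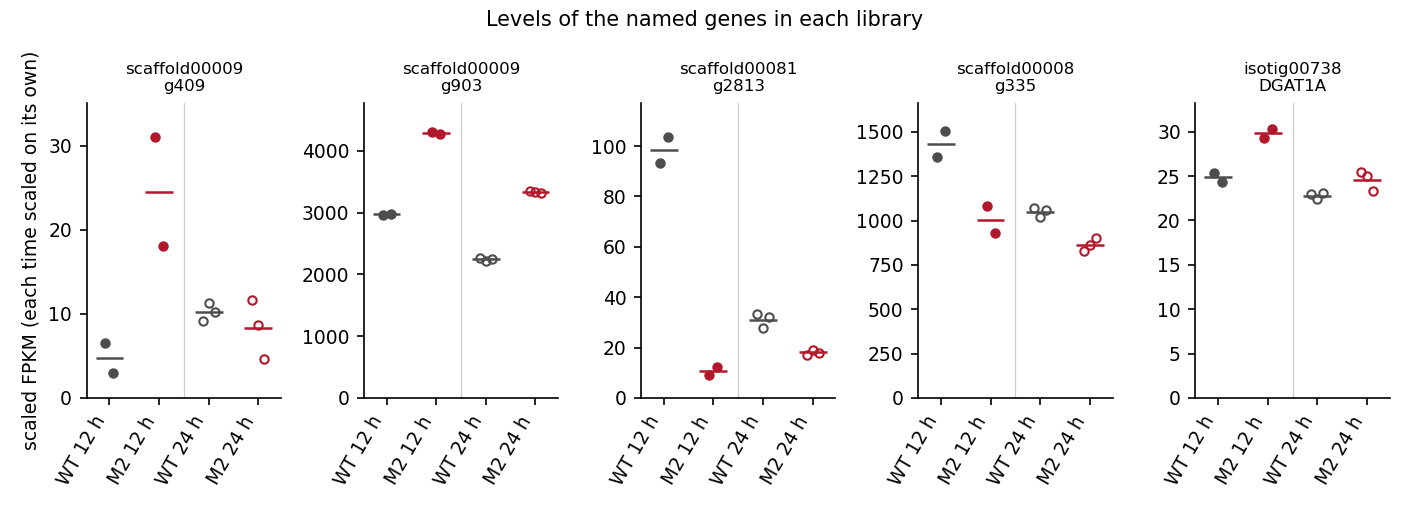
Scaled FPKM of the named genes in each library, as points, with group means as lines, for WT (grey) and M2 (red) at 12 h (filled, 2 libraries each) and 24 h (open, 3 each). Each time was scaled on its own. At 12 h the M2 points lie apart from the WT points in all 5 panels, which was a condition of choice for all but DGAT1A. At 24 h those of scaffold00009.g409 overlap.

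Behind these named genes the falls formed a long tail and the rises a short one. The second deepest fall was from 360 and 354 scaled FPKM in WT to 43.6 and 48.9 in M2, 7.58-fold on the scale of scaled FPKM + 1, and the third from 35.9 and 33.1 to 3.82 and 3.68. Replicates stayed close in both, but at 24 h the log2 change was -1.55 for the second and 0.80 for the third. The tenth deepest, 5.18-fold, was less secure, with 0 and 4.42 FPKM in the M2 libraries against 9.61 and 12.7 in WT. The second largest rise was 3.65-fold, from 10.7 and 15.8 to 46.5 and 54.3, and the third 3.55-fold, from 92.2 and 91.6 to 319 and 338. The tenth rise was 2.43-fold.

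Presence or absence played little part. The 244 genes below the filter of a mean of 1 FPKM were not tested. Their highest value in the 4 libraries was 3.58 FPKM, and the filter itself keeps such values low. In all 4 libraries 17 genes were listed at 0. Genes listed at 0 in both M2 libraries and above 0 in both WT libraries numbered 5, and 4 genes showed the opposite.

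Genes called in the same direction lay next to each other more often than over all genes, the fallen genes included. The IDs carry a scaffold and a running number, and whether this number follows the order on the chromosome is not stated. Of the 221 fallen genes 193 had a tested gene with the next number on the same scaffold, and for 22 of these (11.4%) that gene had also fallen at least 2-fold, against 2.29% over all 8613 such pairs. Of the 21 risen genes 17 had such a neighbour, and 0 of these had risen 2-fold. Among all genes called lower, whatever the size, the next gene was also called lower for 29.6%, against 22.5% over all pairs, and among those called higher for 28.7% against 20.9%. No test was made of these shares, and without strand information reads of overlapping genes cannot be told apart.

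The fallen genes came from 54 scaffolds. They formed 19 runs of 2 consecutive numbers and 1 run of 4, and 179 stood alone. The run of 4 lay on the scaffold of scaffold00081.g2813, where 6 of 34 tested genes (17.6%) fell by at least 2-fold. The genes of the run had mean levels of 14.7, 26.3, 13.4 and 61.0 scaled FPKM in WT and 6.63, 11.5, 5.23 and 28.9 in M2, log2 changes of -1.05, -1.13, -1.21 and -1.05. Replicates of the first differed widely, at 18.1 and 11.2 in WT and 4.67 and 8.60 in M2. At 24 h the log2 changes of the run were 0.07, -0.05, -0.62 and -1.14. The most fallen genes on any scaffold were 14 of 485 (2.89%), on scaffold00026.

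The 24 h libraries, 3 of each line, share no library with the 12 h comparison and give the same measure for the same genes. Of the 221 genes at least 2-fold lower at 12 h, 200 (90.5%) were lower in M2 at 24 h, against 48.9% of all genes. In all 9 pairs of an M2 and a WT library 179 of them were lower, or 81.0%, while 33% of all genes were lower and 33.6% higher in all 9 pairs. Their median log2 change at 24 h was -0.61, compared with -1.17 at 12 h and with 0.01 for all genes at 24 h, and 39 were at least 2-fold lower, against 96 of all 9510 genes (1.01%). The deepest falls kept their direction less often: of the 11 genes at least 4-fold lower at 12 h, 7 (63.6%) were lower at 24 h and 4 were higher. Of the 21 genes higher at 12 h, 13 (61.9%) were higher at 24 h, against 51.1% of all genes, and 11 were higher in all 9 pairs, with a median log2 change of 0.42 over the 21. Whether the change differed between the times was not tested here.

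Of the named genes 4 kept their direction at 24 h with no overlap between the lines. Scaffold00009.g903 had 2257, 2220 and 2247 scaled FPKM in WT and 3356, 3340 and 3315 in M2, a log2 change of 0.57. Scaffold00081.g2813 had 33.3, 27.8 and 32.0 in WT and 17.0, 19.1 and 18.0 in M2, a log2 change of -0.75. Scaffold00008.g335 had 1069, 1022 and 1059 in WT and 828, 862 and 905 in M2, a log2 change of -0.28. The change of DGAT1A, from 22.9, 22.4 and 23.1 to 25.4, 25.0 and 23.3, was 0.10 on the log2 scale and did not pass the threshold at 24 h (limma, adjusted p = 0.10, n = 3 per group). For scaffold00009.g409 the groups overlapped, at 9.14 to 11.3 in WT and 4.60 to 11.6 in M2. By level class, the median at 24 h was -0.11 in the lowest class and 0.34 in the highest, with -0.06, 0.00, 0.04, 0.05 and -0.02 between them.

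**Figure D5:**
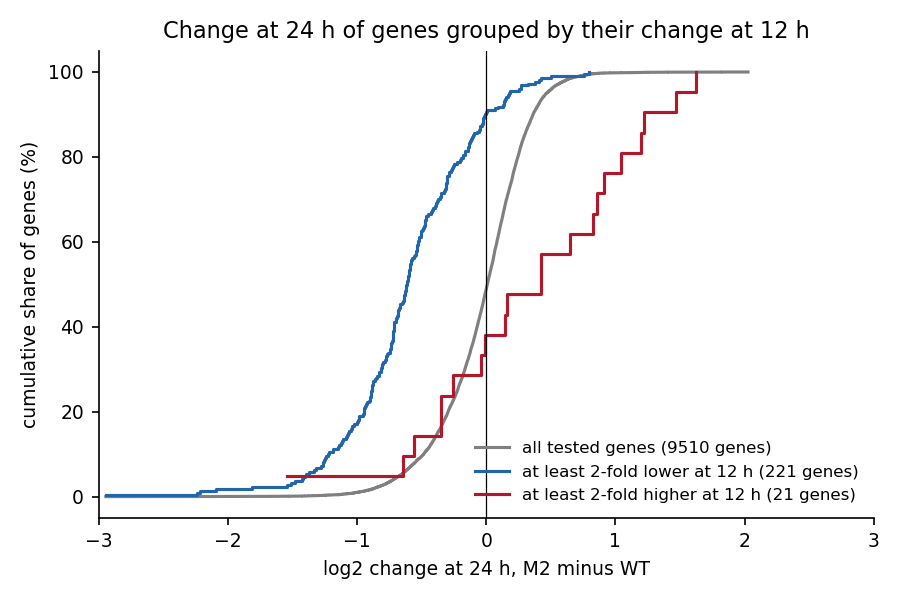
Cumulative share of genes (percent) by their log2 change at 24 h (M2 minus WT), for all tested genes (grey), the 221 genes at least 2-fold lower at 12 h (blue) and the 21 at least 2-fold higher (red). The blue curve lies left of the grey one and crosses 0 at 90.5%.

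With WT replicate 3 added to the WT group, 0 genes passed the threshold (limma, 663 of 9540 at an unadjusted p under 0.05), and the median SE of the log2 change rose from 0.09 to 0.37. In a comparison added after seeing the data, with WT replicate 3 alone as WT, which did not enter the choice of these genes while the M2 libraries did, 204 of the 221 fallen genes were lower in M2, against 48.3% of all genes. Of the 21 risen genes 15 were higher, against 51.7%. Over all genes tested 2400 were then at least 2-fold higher in M2 and 2385 at least 2-fold lower. In scaffold00081.g2813 that library alone held 32849 scaled FPKM, and scaffold00009.g409 was listed at 0 in it. With all 3 WT libraries the median log2 change was -0.32 for genes under 10 FPKM and 0.14 for those at 100 FPKM and more.

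The authors' merged columns gave another picture. In the authors' deposited table of merged values 107 of the 221 fallen genes were lower in M2 than in WT, with a median log2 change of 0.06, and 17 of the 21 risen genes were higher, with a median of 0.74. Over all tested genes 132 were at least 2-fold lower and 438 at least 2-fold higher, and the level pattern was turned, with medians of 0.20 under 10 FPKM and -0.14 at 100 FPKM and more. The merged WT column was a weighted sum of the 3 WT columns, WT replicate 3 included, within a median of 0.0088%. The merged M2 column deviated from a weighted sum of the 2 M2 libraries by a median of 26.5% at the best weights. No column header names the labelled M2 replicate 3, so whether that library entered the merged column cannot be seen. The falls in M2 were thus measured in the replicate columns, and the merged M2 column holds values that these columns do not account for.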

How the data were processed

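RNA levels were measured in cultures of WT and M2 cells. The authors deposited FPKM values in 1 table per group and 2 tables of merged group values. Per the submitters' processing notes, Cufflinks 2.0.2 and TopHat2 2.0.4 were used. The genome build is not given in the sources used here, nor are the annotation and any normalization across tables. As FPKM are no read counts, count models were not applied.

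The 4 libraries were scaled by median-of-ratios factors over the 9619 genes above 0 in all 4. Genes with a mean scaled FPKM of at least 1 were tested on log2(scaled FPKM + 1), a scale on which folds of low genes come out too small, with limma 3.58.1 in R 4.3.3 (moderated statistics with an intensity trend, 2-sided, Benjamini-Hochberg adjustment, threshold 0.05). WT and M2 have 2 libraries each, labelled as biological replicates. The 24 h libraries were scaled and fitted on their own in the same way. The fit was also run on simulated data with independent noise and few changed genes, which does not test the scaling or a share of calls as large as here. Python 3.11.15, numpy 2.4.6, pandas 2.3.3, scipy 1.17.1 and matplotlib 3.10.9 were used.

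Named genes were those with the largest log2 change and the largest difference in mean level in each direction, among genes past the threshold with a mean of at least 5 FPKM in a group and libraries that did not overlap, plus DGAT1A. Members, rules and alternatives were chosen with earlier results of these data known. In the deposited 24 h table of M2 the columns are headed MT.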

Additional observations from a re-analysis of the deposited data

Results flagged for a closer look

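The authors' merged M2 column for 12 h, which entered no test, lay a median of 26.5% away from the closest weighted sum of the 2 M2 libraries, whereas for the merged WT column and its 3 columns the median was 0.0088%. Of the 221 genes at least 2-fold lower in M2 at 12 h, 12 were higher in all 9 library pairs at 24 h. Their log2 changes were 0.09 to 0.80. As a share, 12 of 221 lies below the 33.6% of all genes that were higher in all 9 pairs. Of the 21 genes at least 2-fold higher at 12 h, 4 were lower in all 9 pairs at 24 h, with log2 changes of -1.54 to -0.35. This share too lies below that of all genes, of which 33% were lower in all 9 pairs. The difference between the times was not tested for these genes.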

How the results depend on the processing

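Counts are given as higher and lower in M2, and causes were not tested. The main counts are 1979 and 2155 genes of any size, 21 and 221 of at least 2-fold, and 20 and 137 beyond 1.5-fold. With a pseudocount of 5 the 2-fold counts were 11 and 80, and 80 genes were lower beyond 1.5-fold, since a larger pseudocount shrinks folds. With a pseudocount of 0.1 the 2-fold counts were 28 and 325, so they depend on the value added. Without the filter 89 genes were lower beyond 1.5-fold. With the spread shared over the 10 libraries of both times the counts beyond 1.5-fold were 34 and 300, and without an intensity trend 3 and 22. With WT replicate 3 all 6 counts were 0 (limma, 663 genes at an unadjusted p under 0.05), and with the spread shared over 11 libraries 294 and 531 genes were called, 1 and 3 of them beyond 1.5-fold. That fit called 176 falls of at least 2-fold, of which 101 were among the 221. For all 221 genes both M2 libraries lay below both WT libraries, so that each was lower with either M2 library alone follows from this and is no further check. By size alone, 200 of the 221 were still at least 2-fold lower with M2 replicate 1 and 171 with M2 replicate 2. The genes had been chosen with these same libraries. Leaving out each library in turn gave 1004 to 1865 and 1196 to 2109 genes, 22 to 29 and 218 to 318 of at least 2-fold, and 7 to 17 and 19 to 156 beyond 1.5-fold.

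Same-numbered replicates did not deviate together (correlation of their deviations across genes -0.03). Whether they share more than a number was not tested beyond this. With the replicate number as a block 1829 and 2020 genes were called, and the falls beyond 1.5-fold numbered 83. FPKM as deposited gave 1568 and 2424 calls, an equal sum 1646 and 2392, and quantile normalization 2141 and 1842. In the merged columns 438 and 132 genes differed by at least 2-fold.

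DGAT1A (0.25) lost its call with FPKM as deposited (0.21), an equal sum (0.21), the replicate block (0.25), WT replicate 3 (0.12) and 11 libraries (0.12), and without any 1 library (0.23 to 0.28). In the merged columns it stood at 0.55. Scaffold00009.g903 was lower there, at -0.18. The median change under 10 FPKM, -0.21, turned to 0.034 with quantile normalization, which by itself draws medians by level towards 0. In the merged columns, a setting added after seeing the data, it turned to 0.20. The median at 100 FPKM and more, 0.09, turned to -0.14 in the merged columns. The unknown depth limits the precision of low values.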
